A study of Mus musculus with 12 samples.

Results

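A set of 8 genes of alveolar fluid transport was followed in the lungs of miR-30a-/- mice after neonatal hyperoxia. They were taken by symbol from the gene count table, where all 8 were found among 55487 genes. They encode the epithelial sodium channel ENaC (Scnn1a, Scnn1b and Scnn1g), the sodium pump subunit Atp1b1, the chloride channel Cftr, the water channel Aqp1, the chloride cotransporter Slc12a2 and the ubiquitin ligase Nedd4l. RNA-Seq was done on whole lungs of 12 C57BL/6J mice on postnatal day (PND) 21, all with the miR-30a -/- genotype. There were 4 groups of 3 lungs: females and males that breathed room air, and females and males exposed to hyperoxia (95% FiO2) from PND 1 to PND 5. The line carries a deletion of miR-30a made with CRISPR, pups of several litters were mixed before exposure, and wild-type lungs were not analysed here, so every value below was measured without miR-30a.

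Air spaces are kept nearly dry by moving salt across the alveolar epithelium, with water following by osmosis. Sodium enters the apical side of alveolar type 1 and type 2 cells through ENaC and is pumped out of the basolateral side by the Na,K-ATPase, whose beta subunit brings the pump to the membrane. CFTR passes chloride at the apical side, the cotransporter encoded by Slc12a2 (NKCC1) loads chloride at the basolateral side and drives fluid secretion in the fetal lung, AQP1 carries water mainly in capillary endothelium, and NEDD4L marks ENaC for removal from the membrane. The switch from secretion to absorption takes place around birth.

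The deleted miRNA is shown with its relatives because all of them share the seed (bases 2 to 8, in capitals), the part that pairs with target transcripts. The sequences are from RefSeq (GRCm38.p6), where miR-30a-5p is at chr1:23272274-23272295 on the plus strand.
miR-30a-5p: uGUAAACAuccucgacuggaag
miR-30c-5p: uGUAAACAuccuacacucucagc
miR-30e-5p: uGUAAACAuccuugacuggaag
A match to this seed is TGTTTAC in DNA letters. It was looked for in the longest annotated 3′ UTR of each gene. Nedd4l held 2 matches in a 3′ UTR of 4942 bases, and the other 7 members held 0 matches in 3′ UTRs of 453 to 2770 bases. Of 21027 genes with a 3′ UTR, 13.8% held at least 1 match, and of the 474 genes with a 3′ UTR within 10% of Nedd4l's length 38.6% did. These are matches of letters, not measured sites.

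Promoter windows of 300 bases (250 before and 50 after the start) are shown for Scnn1g, Scnn1b and Atp1b1. Scnn1g and Scnn1b are the ENaC subunits that lie on the plus strand of chromosome 7. Their levels followed each other most closely within ENaC over the lungs (r = 0.947). Atp1b1 was the only member whose exposure groups were apart in a sex as counted. RefSeq listed 5 members, all but Scnn1a, Slc12a2 and Nedd4l. Capitals mark matches, on both strands, of the GC box with the letters GGGCGG and of the core of the antioxidant response element, TGACNNNGC. The TATA box with the letters TATAAA was also looked for and was not in these windows.
Scnn1g, chr7:121734229-121734528 (plus strand): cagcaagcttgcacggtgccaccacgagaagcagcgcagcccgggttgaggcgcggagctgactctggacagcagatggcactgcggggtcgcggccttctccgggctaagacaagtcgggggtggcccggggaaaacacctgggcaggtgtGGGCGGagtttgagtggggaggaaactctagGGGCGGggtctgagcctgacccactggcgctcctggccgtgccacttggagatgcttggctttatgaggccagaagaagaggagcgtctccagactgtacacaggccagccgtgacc
Scnn1b, chr7:121864788-121865087 (plus strand): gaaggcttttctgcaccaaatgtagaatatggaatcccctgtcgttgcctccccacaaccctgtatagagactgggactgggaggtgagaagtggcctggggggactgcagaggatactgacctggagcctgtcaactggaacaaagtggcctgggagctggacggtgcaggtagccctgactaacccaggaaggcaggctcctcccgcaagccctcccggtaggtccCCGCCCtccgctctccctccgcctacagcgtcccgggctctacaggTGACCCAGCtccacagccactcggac
Atp1b1, chr1:164458306-164458605 (minus strand): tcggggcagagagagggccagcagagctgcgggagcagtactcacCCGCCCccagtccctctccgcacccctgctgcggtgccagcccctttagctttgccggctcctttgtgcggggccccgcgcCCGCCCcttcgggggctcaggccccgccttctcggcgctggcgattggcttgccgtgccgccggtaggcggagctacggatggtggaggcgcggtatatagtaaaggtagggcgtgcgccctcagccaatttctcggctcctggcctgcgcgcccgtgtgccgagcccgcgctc
The windows held 2 GC boxes in Scnn1g, 1 in Scnn1b and 2 in Atp1b1. Only the Scnn1b window, among the 5 listed, held the antioxidant core, with 1 match. Among 32851 promoters of this length 35.7% held a GC box, 13.6% a TATA box and 12.4% the antioxidant core. The Scnn1g and Scnn1b windows were 64.7% and 61.7% G and C, and that of Atp1b1 was 71%.

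On mm10 with GENCODE mouse release 21, Scnn1a (ENSMUSG00000030340) lies on chromosome 6 from 125320659 to 125344943 and Scnn1b (ENSMUSG00000030873) and Scnn1g (ENSMUSG00000000216) lie on chromosome 7, from 121865038 to 121918514 and from 121734479 to 121768475. Atp1b1 (ENSMUSG00000026576) lies on the minus strand of chromosome 1 from 164437109 to 164458355. Cftr (ENSMUSG00000041301) and Aqp1 (ENSMUSG00000004655) lie on chromosome 6, from 18170687 to 18322768 and from 55336432 to 55348555. Slc12a2 (ENSMUSG00000024597) and Nedd4l (ENSMUSG00000024589) lie on chromosome 18, from 57878678 to 57946821 and from 64887705 to 65217828. All but Atp1b1 are on the plus strand. Exons of 3 members share bases with a gene on the other strand: Atp1b1 shares 575 bases with Nme7, Cftr 129 bases with Gm15592 and Nedd4l 277 bases with A330084C13Rik. The strand setting of the counting is not given in the sources used here, so reads from these stretches cannot be assigned to a strand.

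Total counts per lung ranged from 8763033 to 16741694. The room air females (12497449 to 16741694) were all deeper than the hyperoxia females (10255870 to 11584337). The sex labels matched the counts: the 6 lungs labelled female held 8834 to 27296 counts of Xist and the 6 labelled male 148 to 210. Mir30a had 0 counts in all 12 lungs, which checks little, since a short hairpin is hardly captured by this kind of library. Gm10800 took 6.04% to 16.6% of the counts in room air females, 15.5% to 22.4% in hyperoxia females and 7.18% to 23.8% in males. The part of depth and of this gene in the female values below was not tested. Olfactory and vomeronasal receptor genes, which the lung is not known to use widely, took between 0.410% and 0.947% of the counts, and this receptor share is given below beside the results it moved with. The separate lungs are separate animals by their numbers, and in whole lung fewer cells of a type and less RNA per cell cannot be told apart.

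All members were well counted, from 233 counts for Cftr in the lowest lung to 6751 for Aqp1 in the highest. Levels are given as CPM, the count scaled to a fixed library size after upper-quartile normalization, and genes are compared with each other as CPM per kilobase of exon. On that per-length scale the order of the mean levels over the 12 lungs was Aqp1 (114.1), Scnn1a (46.7), Scnn1g (36.0), Atp1b1 (28.7), Scnn1b (20.4), Slc12a2 (11.9), Nedd4l (8.03) and Cftr (3.24). The lung-to-lung ranges of neighbours in this order overlapped for Scnn1a (29.3 to 68.3) and Scnn1g (25.2 to 48.7), for Scnn1g and Atp1b1 (18.8 to 43.7), for Atp1b1 and Scnn1b (15.1 to 27.9), for Scnn1b and Slc12a2 (7.75 to 18.5) and for Slc12a2 and Nedd4l (6.69 to 9.97). Aqp1 (73.7 to 163) stood above all others and Cftr (2.95 to 3.63) below all others in every lung. From the reads per kilobase on receptor genes, a uniform background would account for 23.6% to 46.6% of the Cftr counts of a lung, 7.26% to 23.6% for Nedd4l, 3.90% to 19.8% for Slc12a2 and at most 10.2% for each of the other members.

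Scnn1a, which encodes the pore subunit that ENaC needs to reach the membrane, had 191, 261 and 178 CPM in the room air females F2, F5 and F6, and 205, 149.8 and 176 CPM in the hyperoxia females F2, F4 and F5. It had 121, 202 and 179 CPM in the room air males M1, M4 and M5, and 282, 145 and 225 CPM in the hyperoxia males M1, M2 and M3. All groups overlapped, with the highest mean in hyperoxia males (217 ± 68.9 CPM, SD, n = 3) and the lowest in room air males (167 ± 41.7 CPM). With hyperoxia Scnn1a had a log2 fold change of −0.25 in females (SE 0.26, adjusted p = 0.649 by edgeR's quasi-likelihood test) and 0.38 in males (SE 0.26, adjusted p = 0.9998). With 1 lung left out at a time the female value ran from −0.37 (without hyperoxia female F2) to −0.06 (without room air female F5), and the male value from 0.15 (without hyperoxia male M1) to 0.61 (without hyperoxia male M2).

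Scnn1b, the beta subunit, had 60.1, 73.4 and 50.1 CPM in room air females and 48.0, 50.4 and 51.3 CPM in hyperoxia females. In males it had 41.2, 55.4 and 54.6 CPM in room air and 65.4, 39.6 and 54.8 CPM after hyperoxia. The hyperoxia females lay close together (49.9 ± 1.69 CPM) and only the lowest room air female, F6, fell within their range. Its log2 fold change with hyperoxia was −0.30 in females (SE 0.19, adjusted p = 0.472) and 0.08 in males (SE 0.19). It ran from −0.43 (without room air F6) to −0.14 (without room air F5) in females and from −0.08 (without hyperoxia M1) to 0.26 (without hyperoxia M2) in males.

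Scnn1g, the gamma subunit, had 129, 146 and 96.5 CPM in room air females and 98.5, 82.3 and 104 CPM in hyperoxia females. In males it had 76.9, 121 and 109.5 CPM in room air and 140.4, 75.4 and 113 CPM after hyperoxia. Again a single room air female, F6, lay inside the hyperoxia range, and the male groups covered each other. The log2 fold change was −0.38 in females (SE 0.24, adjusted p = 0.453) and 0.10 in males (SE 0.24). The same lungs gave the extremes as for Scnn1b, from −0.54 to −0.25 in females and from −0.12 to 0.31 in males.

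Atp1b1, the beta subunit of the sodium pump, had 98.1, 135 and 91.2 CPM in room air females and 82.0, 79.3 and 75.0 CPM in hyperoxia females. In males it had 57.9, 83.8 and 72.7 CPM in room air and 113.9, 63.2 and 109 CPM after hyperoxia. As counted, it was the only member whose exposure groups did not overlap in a sex (background-subtracted Cftr is given below). Every hyperoxia female was below every room air female, whereas in males hyperoxia lungs M1 and M3 were above all room air lungs and M2 was among them. The order of the group means was room air females (108 ± 23.3 CPM), hyperoxia males (95.5 ± 28.1 CPM), hyperoxia females (78.8 ± 3.54 CPM) and room air males (71.5 ± 13.0 CPM), and of the neighbours none were apart, while room air females were all above room air males. Hyperoxia against room air gave a log2 fold change of −0.45 in females (SE 0.22, adjusted p = 0.399) and 0.42 in males (SE 0.22, adjusted p = 0.9998). Without room air female F5 the female value was −0.26, and the male value ran from 0.28 without hyperoxia male M1 to 0.65 without hyperoxia male M2. The difference between these log2 fold changes was −0.88 (SE 0.32, adjusted p = 0.578), so the interaction of sex and hyperoxia did not pass the adjusted threshold.

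Cftr had 26.96, 23.8 and 25.6 CPM in room air females, 23.6, 22.9 and 26.9 CPM in hyperoxia females, 28.2, 24.5 and 24.7 CPM in room air males and 23.5, 25.6 and 25.6 CPM in hyperoxia males. As counted it was the least variable member, with a coefficient of variation of 6.43% over the 12 lungs against 12.4% to 26.02% for the others. With the estimated background subtracted, on the same library scaling, Cftr had 2.58, 2.34 and 2.05 CPM per kilobase in room air females. It had 1.90, 1.61 and 1.98 in hyperoxia females, so these groups were then apart. In males Cftr then had 2.05, 2.01 and 1.93 in room air and 2.19, 1.76 and 2.06 after hyperoxia. Its log2 fold change was −0.06 in females (95% interval −0.34 to 0.22) and −0.05 in males (95% interval −0.33 to 0.23), so a change past 1.5-fold in the mean Cftr count lay outside both intervals. With 1 lung left out the value stayed between −0.13 and −0.01 in females and between −0.08 and 0.02 in males. Because of the estimated background in the Cftr counts these intervals describe the counts rather than the Cftr transcript alone.

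Slc12a2, the chloride-loading cotransporter, had 164, 202 and 128 CPM in room air females and 139, 112 and 93.7 CPM in hyperoxia females. In males it had 104, 144 and 105 CPM in room air and 162, 84.6 and 127 CPM after hyperoxia. In females 1 hyperoxia lung, F2, exceeded the lowest room air lung, F6, and the male groups overlapped fully. In females Slc12a2 had a log2 fold change of −0.52 (SE 0.25, adjusted p = 0.392), the largest in size among the members, and 0.08 in males (SE 0.25). It ran from −0.68 (without hyperoxia F2) to −0.35 (without room air F5) in females and from −0.15 (without hyperoxia M1) to 0.30 (without hyperoxia M2) in males.

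Aqp1 had 380.3, 429 and 259.7 CPM in room air females and 298, 222 and 276 CPM in hyperoxia females. In males it had 222, 315 and 309 CPM in room air and 390.3, 194 and 304 CPM after hyperoxia. The room air females F2 and F5 and the hyperoxia male M1 were the highest lungs, and F6 fell among the hyperoxia females. Between exposures Aqp1 differed by a log2 fold change of −0.42 in females (SE 0.28, adjusted p = 0.478) and 0.07 in males (SE 0.28). Leaving out room air F6 or F5 gave −0.61 and −0.27 in females, and leaving out hyperoxia M1 or M2 gave −0.17 and 0.31 in males. AQP1 is also a red cell protein, and the 6 red cell genes summed to 5624 to 8121 CPM in room air females and 1297 to 3025 CPM in hyperoxia females. In males they summed to 5235 to 7552 CPM in room air and 2191 to 4790 CPM after hyperoxia. All 6 were below 0 in both sexes, where 39% of all genes were in females and 52% in males. Pooled over sex 3 of 6 were called lower, where 0.0415% of all genes were called. They were Alas2 (−1.11, SE 0.19, adjusted p = 0.0129), Hbb-bt (−1.28, SE 0.23, adjusted p = 0.0205) and Hba-a2 (−1.24, SE 0.23, adjusted p = 0.0233). The part of red cells in the Aqp1 values was not tested. The study perfused the right ventricle before the lungs were frozen.

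Nedd4l, the ligase that removes ENaC, had 165, 176 and 142 CPM in room air females and 144, 131 and 131 CPM in hyperoxia females. In males it had 118, 133 and 138 CPM in room air and 161, 120.4 and 142 CPM after hyperoxia. Room air females (161 ± 17.6 CPM) were all above room air males (129.7 ± 10.3 CPM), as for Atp1b1. These were 2 of 8 members, where 5.6% of all genes had this order. Neighbouring groups in the order of means overlapped. The log2 fold change was −0.25 in females (SE 0.21, adjusted p = 0.564) and 0.12 in males (SE 0.21). In females it ran from −0.34 (without room air F6) to −0.18 (without room air F5) and in males from 0.02 (without hyperoxia M1) to 0.23 (without hyperoxia M2).

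**Figure D1:**
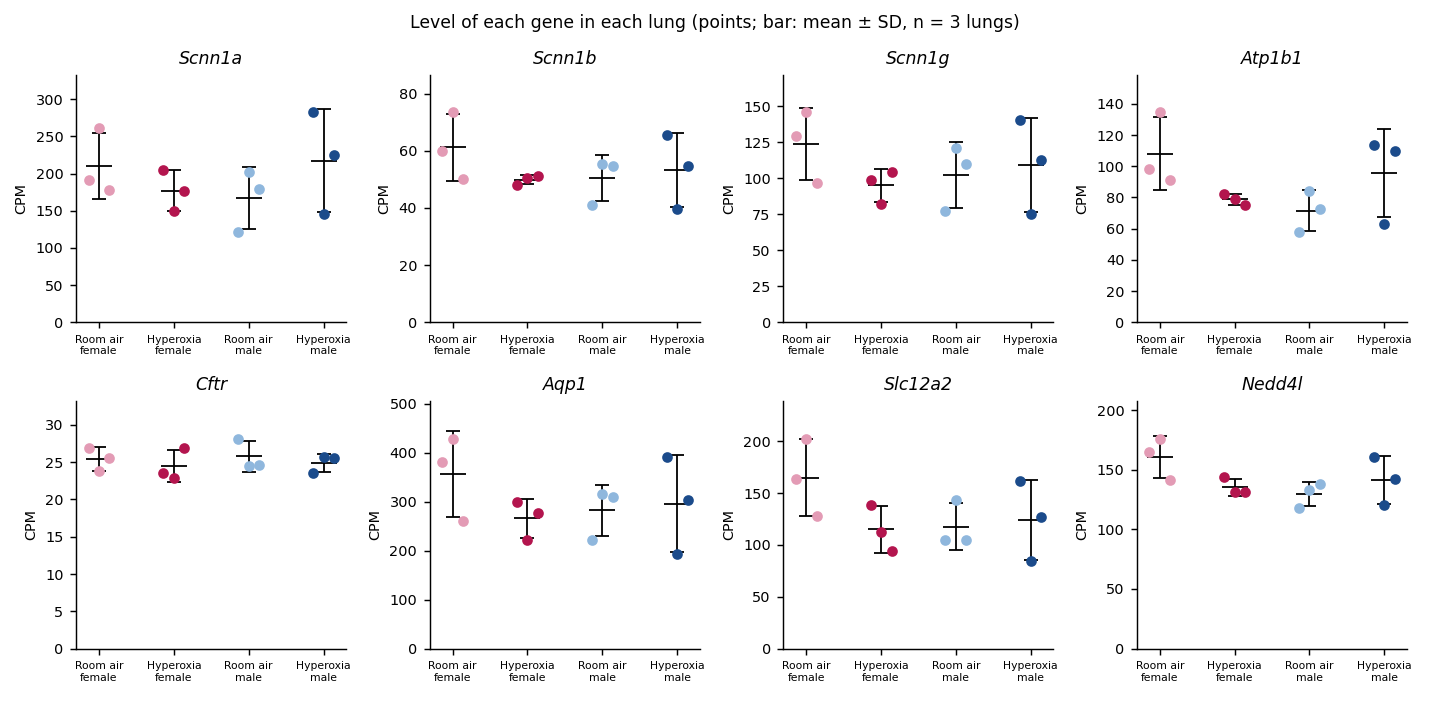
CPM (vertical axes, from 0) of each of the 8 genes in the 12 lungs, by group. Points are lungs and bars are the mean ± SD of 3 lungs; the hyperoxia females lie close together and below all room air females for Atp1b1 (75.0 to 82.0 against 91.2 to 135 CPM), while Cftr stays between 22.9 and 28.2 CPM in every lung.

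The design asks whether hyperoxia in the first days of life left a difference at PND 21, in each sex and over both. No member passed an adjusted p under 0.05 with a fold change over 1.5. In females 0 of 8 members were called, where 0.00218% of the 45828 genes tested were. In males it was 0 of 8 (0% of all genes), pooled over sex 0 of 8 (0.0415%), and for the interaction 0 of 8 (0%). At an unadjusted p under 0.05, Slc12a2 was lower in females and Atp1b1 had a lower (more negative) interaction, and 0 members passed in males or pooled over sex. Over all genes the unadjusted shares were 5.28% lower and 7.32% higher in females, 1.8% lower and 0.899% higher in males, 2.52% lower and 2.67% higher pooled, and 2.4% lower and 6.06% higher for the interaction. DESeq2's Wald test also called 0 members in the 4 comparisons, where it called 0.0835% of all genes in females, 0.2% pooled (of the 19977 given an adjusted p) and 0.0% in males and for the interaction. At an unadjusted p under 0.05 it had 3 of 8 members in females (10.9% of all genes), 2 for the interaction (6.87%), 0 in males (2.02%) and 0 pooled (3.68%).

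By sign alone, all 8 members had a log2 fold change below 0 in females, where 39% of all genes did, and their median was −0.34 against 0.11 over all genes. All 8 stayed below 0 when any 1 female lung was left out, with medians from −0.48 to −0.21, while 4 of 8 did with the receptor share described below as a covariate. In males 1 of 8 members, Cftr, was below 0, where 52% of all genes were, with a median of 0.09 against −0.01. Without hyperoxia male M1 5 of 8 were below 0 (median −0.04), without room air male M1 3 of 8 were (median 0.01), and without hyperoxia male M2 the median was 0.31. Pooled over sex, 7 of 8 were below 0, all but Scnn1a, where 44% of all genes were (median −0.08 against 0.03). For the interaction all 8 were below 0, where 41.4% of all genes were (median −0.49 against 0.12). The pooled comparison and the interaction are built from the same lungs as those of each sex, so these counts are not separate evidence. As counted, in females 1 of 8 members (Atp1b1) had every hyperoxia lung below every room air lung, where 6.43% of all genes did, and 0 had every one above (10.8% of all genes). In males 0 of 8 were below (3.89% of all genes) and 0 above (2.73%).

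**Figure D2:**
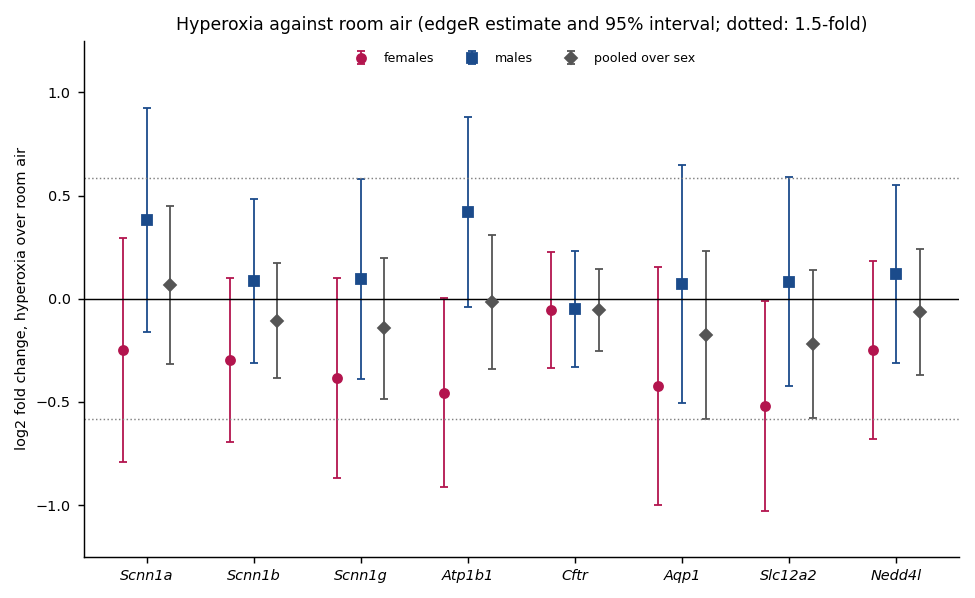
log2 fold change of hyperoxia over room air (vertical axis) for each gene in females (circles), males (squares) and pooled over sex (diamonds), with the 95% interval from edgeR; dotted lines mark 1.5-fold. The female estimates lie between −0.52 and −0.06 and the male estimates between −0.05 and 0.42, and of all intervals drawn only that of Slc12a2 in females leaves out 0.

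As counted, the members other than Cftr went up and down together over the lungs, as did many other genes. Among all but Cftr, the 21 pairwise Pearson correlations of log2 CPM over the 12 lungs ran from 0.77 to 0.98, the closest being Scnn1g with Aqp1, while the 7 pairs with Cftr ran from −0.52 to −0.27. With the background estimated from receptor genes subtracted, Cftr was highest in room air females F2 (2.58 CPM per kilobase) and F5 (2.34) and hyperoxia male M1 (2.19). It was lowest in hyperoxia female F4 (1.61) and hyperoxia male M2 (1.76), while room air male M1 had 2.05. The 12 points of each correlation share libraries, depth and scaling. Over 21379 genes the main axis of variation in log2 CPM (first principal component) held 53.0% of the variance. Room air females F5 (51.9) and F2 (32.6) and hyperoxia male M1 (32.0) were at 1 end of it. Hyperoxia male M2 (−43.3) and room air male M1 (−30.1) were at the other. The lungs with high levels were those with a small receptor share. Room air female F5 (0.410% of counts on receptor genes), hyperoxia male M1 (0.516%) and room air female F2 (0.517%) had the smallest shares, and these were the 3 highest lungs for Scnn1b, Scnn1g, Aqp1, Slc12a2 and Nedd4l and held 2 of the 3 highest for Scnn1a and Atp1b1. Room air male M1 (0.901%) and hyperoxia male M2 (0.947%) had the largest shares and were among the 3 lowest lungs for all members but Cftr. By group the median share was 0.517% in room air females, 0.782% in hyperoxia females, 0.770% in room air males and 0.725% in hyperoxia males.

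With the log2 receptor share as a covariate, the log2 fold changes in females ran from −0.15 to 0.22 with a median of 0.02, and 4 of 8 members were above 0, namely Scnn1a, Scnn1b, Scnn1g and Aqp1. The median over all genes in females went from 0.11 to 0.00 in this fit. With the background estimated from receptor genes subtracted they ran from −0.37 to −0.02 with a median of −0.13. With the covariate the female value of Slc12a2 went from −0.52 to −0.03 and that of Atp1b1 from −0.45 to −0.05. Atp1b1 and Scnn1a in males kept values of 0.32 and 0.25 with the covariate. The interaction of Atp1b1 was −0.37 with the covariate and −0.61 with the background subtracted, and that of Scnn1a, −0.63 as reported and −0.86 to −0.40 with 1 male hyperoxia lung left out (M2 or M1), was −0.04 (SE 0.16) and −0.33. No member was called in either fit, and the part of the receptor share in the differences was not tested further.

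**Figure D3:**
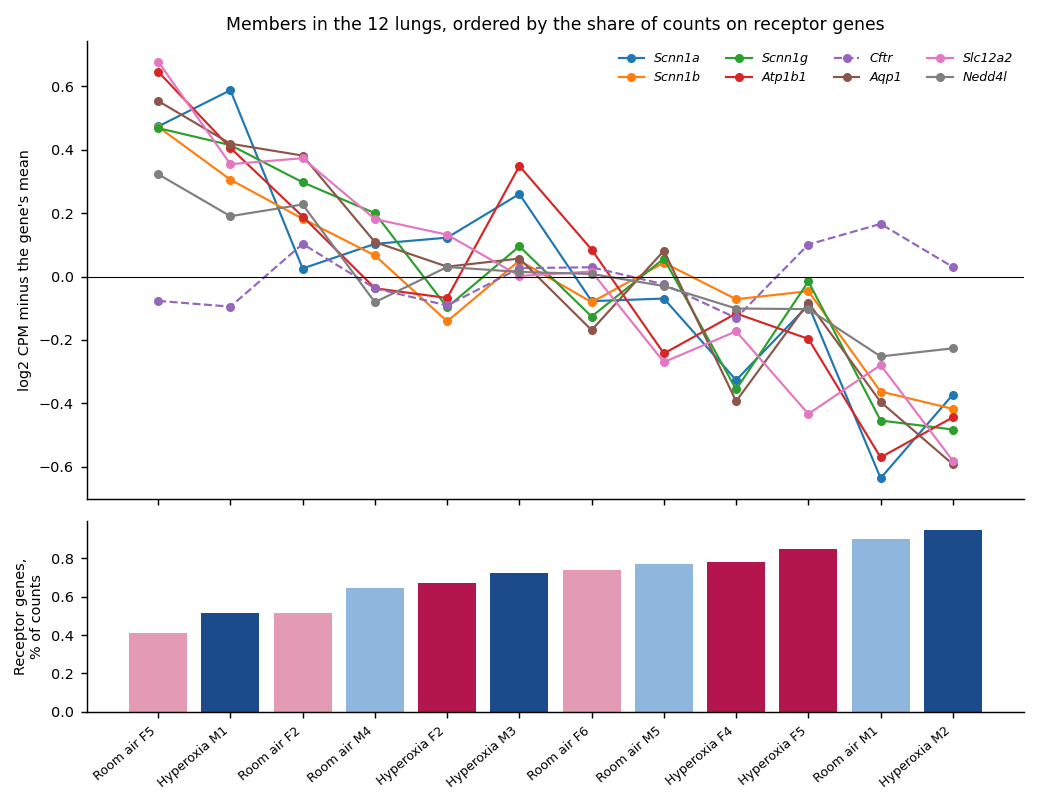
Top: log2 CPM minus the gene's mean over the 12 lungs, for each member, with lungs ordered by receptor share. Bottom: the receptor share of each lung in percent of counts, coloured by group (pale for room air, dark for hyperoxia, red for female, blue for male). As counted, all members but Cftr (dashed) run from high on the left, at 0.410%, to low on the right, at 0.947%. Background-subtracted Cftr, not drawn, had 2.34 CPM per kilobase in the lung on the far left and 1.76 in that on the far right.

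RUVr, which estimates unwanted factors from the residuals of the fit itself and was used in the study with a number of factors that its text does not give, left the fold changes nearly in place and made their standard errors smaller. With 1 to 3 factors the medians in females were −0.31, −0.31 and −0.32, and the standard errors of the members fell from a range of 0.14 to 0.28 to one of 0.07 to 0.10 with 1 factor. In females 6, 7 and 7 of 8 members then had an adjusted p under 0.05, where 16.7%, 17.5% and 18.5% of all genes did. In males 1, 2 and 2 of 8 did (0.146%, 0.48% and 0.801% of all genes), which were Atp1b1 with each number of factors and Scnn1a with 2 and 3. Pooled over sex 2 of 8 did with each number (4.51%, 4.96% and 6.18% of all genes), namely Slc12a2 and Aqp1. Each of these values was a fold change under 1.5. For the interaction 6, 7 and 7 of 8 had an adjusted p under 0.05 (11.7%, 12.3% and 13.6% of all genes), and 2 members were called at a fold change over 1.5 with each number of factors (4.58%, 4.79% and 5.2% of all genes). Atp1b1 had an interaction of −0.84 (adjusted p = 2.69e-05 with 1 factor) and Scnn1a one of −0.60 (adjusted p = 0.00799 with 1 factor). Over the 22 alternatives of this comparison the adjusted p ran from 1.25e-05 to 1 for Atp1b1 and from 2.92e-06 to 1 for Scnn1a. In the same fits with 1 factor 1903 genes were called in females and 2101 for the interaction, against 1 and 0 without factors.

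**Figure D4:**
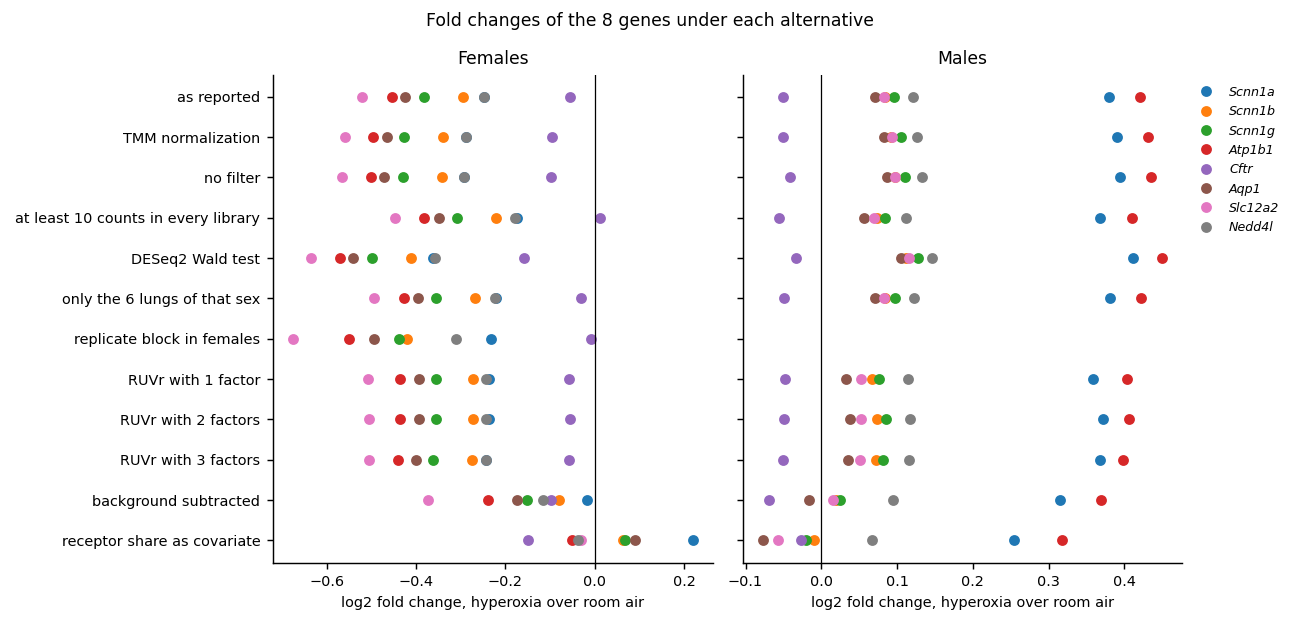
log2 fold change of hyperoxia over room air (horizontal axes) of the 8 genes in females (left) and males (right) under each alternative (rows) other than leaving out a lung. In females the values move from below 0 to a range of −0.15 to 0.22 with the receptor share as covariate, while in males Scnn1a and Atp1b1 stay above 0.25 in every row shown; the replicate block was fitted in females only.

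Ratios between members within a lung do not depend on the scaling of the library, and they were looked at after the levels had been seen, as a description with no test. Per kilobase, Scnn1a made up 41.2% to 49.2% of the 3 ENaC subunits, Scnn1g 32.7% to 38.5% and Scnn1b 17.7% to 23.1%, in that order in every lung. In room air males the Scnn1a share was 41.4%, 44.3% and 43.0%, and in hyperoxia males it was 48.8%, 46.6% and 48.2%, with no overlap. The Scnn1g share was 36.4%, 36.7% and 36.4% in room air males and 33.5%, 33.4% and 33.3% in hyperoxia males. In females the ranges overlapped, with Scnn1a shares of 41.2%, 45.2% and 45.7% in room air and 49.2%, 43.7% and 44.0% after hyperoxia.

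**Figure D5:**
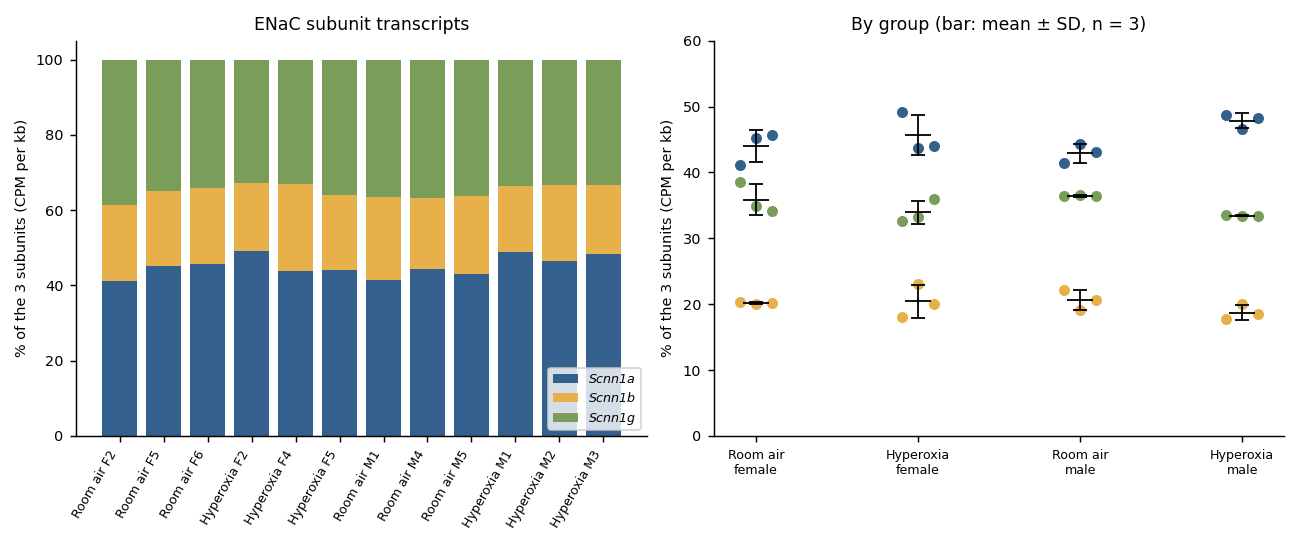
Left: share of each ENaC subunit in the sum of the 3 (percent, CPM per kilobase) in each lung. Right: the same shares by group, in the same colours, with points for lungs and bars for mean ± SD (n = 3). For Scnn1a the hyperoxia males, 46.6% to 48.8%, lie above the room air males, 41.4% to 44.3%. How often ratios of other genes are apart in this way was not tested.

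The 56 other genes of the pathway gave the same count of calls. None was called in females, males, pooled or for the interaction, and at an unadjusted p under 0.05 there were 7 lower and 1 higher in females (5.28% and 7.32% of all genes), 0 in males (1.8% and 0.899%), 3 lower and 0 higher pooled over sex (2.52% and 2.67%) and 3 lower and 1 higher for the interaction (2.4% and 6.06%). Below 0 lay 45 of 56 in females (39% of all genes), 19 of 56 in males (52%), 43 of 56 pooled (44%) and 46 of 56 for the interaction (41.4%). Their medians were −0.28, 0.05, −0.09 and −0.29, against 0.11, −0.01, 0.03 and 0.12 over all genes. By class, 5 of 6 further sodium pump genes, 3 of 3 aquaporins, 12 of 14 kinases, ligases and steroid control genes, 6 of 7 proteases and inhibitors, 4 of 4 CFTR partners, 13 of 18 other ion transporters and 2 of 3 claudins were below 0 in females, and the cation channel Trpv4 was at 0.16 (SE 0.15). In females 10 of the 56 had all hyperoxia lungs below all room air lungs (6.43% of all genes) and 2, Cldn4 and Kcnn4, all above (10.8%). In males 0 were below (3.89%) and 1, Nr3c2, above (2.73%).

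Aqp5, the apical water channel of alveolar type 1 cells, had 126, 123 and 66.4 CPM in room air females and 63.8, 63.7 and 64.1 CPM in hyperoxia females. All hyperoxia lungs were below, by little for F6, and the log2 fold change was −0.72 (SE 0.24, adjusted p = 0.339). Without room air female F6 Aqp5 reached −0.97 (adjusted p = 0.0476) and was called, where 206 of 46780 genes were. Over the 17 alternatives for Aqp5 in females the adjusted p ran from 6.85e-07 to 0.979. The value was −0.57 without room air female F2 and −0.15 with the receptor share as covariate. In males Aqp5 had 58.1, 82.3 and 72.3 CPM in room air and 90.3, 45.3 and 61.2 CPM after hyperoxia (log2 fold change −0.11).

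Sgk1, the kinase that opposes NEDD4L, had a log2 fold change of −0.36 in females (SE 0.23, adjusted p = 0.472) and −0.11 in males (SE 0.24), with −0.53 to −0.17 in females (without hyperoxia F5 or room air F5) and −0.29 to 0.07 in males (without room air M1 or hyperoxia M2) when 1 lung was left out. The 5 other genes with the smallest p pooled over sex were Aqp5 (−0.42, SE 0.17), the claudin Cldn3 (−0.32, SE 0.13), Bpifa1, an airway secreted regulator of ENaC (−0.56, SE 0.23), the CFTR scaffold Slc9a3r1 (−0.23, SE 0.12) and the water channel Aqp4 (−0.28, SE 0.15). The adjusted p was 0.927 for each of them. By the background estimate above, 21.7% to 63.9% of the Aqp4 counts and 9.80% to 36.9% of the Bpifa1 counts of a lung would be background. Leaving out 1 lung brought the pooled value nearest to 0 at −0.31 for Aqp5 (hyperoxia M2), −0.21 for Cldn3 (room air F5), −0.27 for Bpifa1 (room air F6), −0.11 for Slc9a3r1 (room air F5) and −0.13 for Aqp4 (room air M1). Room air female F6 had 19.7 CPM of Bpifa1 against 6.76 and 9.01 CPM in the other room air females, and leaving that lung out turned the female value from −0.56 to 0.0042.

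Markers of the cells that hold these transporters were examined beside the members. In females, 6 of 6 alveolar type 1 genes, 7 of 7 alveolar type 2 genes, 6 of 6 airway genes and 7 of 7 capillary genes were below 0, with medians of −0.45, −0.51, −0.53 and −0.43, and 0 of them had an adjusted p under 0.05. In males the medians were 0.09, 0.19, −0.03 and 0.05. The summed alveolar type 2 genes ranged from 6154 to 11869 CPM in room air females, 5793 to 7539 in hyperoxia females, 5067 to 8107 in room air males and 4816 to 10154 in hyperoxia males. The capillary genes summed to 1474 to 2262 CPM, 1304 to 1718, 1189 to 1927 and 1048 to 2052 in the same groups. Of other cell types, the cardiac muscle genes summed to 211 to 236 CPM in room air females and 106 to 136 CPM in hyperoxia females (5 of 6 below 0, median −0.78), without overlap. The smooth muscle genes summed to 161 to 187 and 125 to 153 CPM (3 of 4 below 0, median −0.34) and the leukocyte genes to 251 to 313 and 164 to 233 CPM (2 of 4 below 0, median −0.16) in the same groups, also without overlap. Of the leukocyte genes, Ptprc (−0.60) and Cd79a (−0.42) were lower and Cd3e (0.22) and Marco (0.10) higher. Of all single genes, 6.43% had every hyperoxia female below every room air female. Skeletal muscle genes went the other way, from 114.1 to 169 CPM in room air females and from 152 to 179 CPM in hyperoxia females (2 of 7 below 0, median 0.26). In males the cardiac sums were 105 to 237 and 109.9 to 113 CPM, the smooth muscle sums 127 to 165 and 96.3 to 169 CPM and the leukocyte sums 188 to 261 and 173 to 222 CPM in room air and hyperoxia. The skeletal muscle sums in males were 151 to 1746 and 129 to 189 CPM (7 of 7 below 0, median −1.67). Room air male M1, with the lowest Scnn1a, Atp1b1 and Nedd4l levels and the highest Cftr level, had 1746 CPM of skeletal muscle genes against 114.1 to 189 in all other lungs. The part of cell makeup and of this lung's muscle RNA in the results was not tested, and without it the members' values in males ran from −0.07 to 0.29.

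The genes whose pattern over the 12 lungs was most like each member were taken from 21379 genes with a mean of at least 5 CPM, by Pearson correlation of log2 CPM. They were Gata2, Irf2bp2 and Tns1 for Scnn1a (r = 0.98, 0.97 and 0.97), Synpo, Otub1 and Tsc22d1 for Scnn1b (0.98, 0.98 and 0.97) and Golga2, Prr14 and Galnt18 for Scnn1g (0.98 for each). Swt1, Gm27028 and Lpin2 were closest to Atp1b1 (0.99, 0.97 and 0.96), Zfp384, Zyx and Galnt18 to Aqp1 (0.99 for each), Notch2, Ptbp3 and Pcbp2 to Slc12a2 (0.99 for each), and Supt6, Brd1 and Eif4e2 to Nedd4l (0.98 for each). Cftr had looser neighbours, Ckmt2, Wif1 and Kcng4 (0.90, 0.86 and 0.86), of which Ckmt2 encodes a muscle creatine kinase.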

How the data were processed

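RNA-Seq of 12 miR-30a-/- mouse lungs on PND 21 was analysed, 3 lungs per group of sex and exposure, as given by the sample titles. Each value column was matched to 1 lung, and 0 columns were left over. Per the labels and the study's methods, the authors deposited unnormalized counts of reads per gene, made with Trim Galore, STAR (mm10) and featureCounts. The strand setting and annotation release are not given in the sources used here. Labels and methods name different library kits, and give no batch beyond 1 sequencing lane. The study's ComBat-seq step included wild-type libraries and was not repeated.

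Counts were tested with edgeR 4.0.16 in R 4.3.3 (robust quasi-likelihood fit of the 4 groups, upper-quartile normalization, filterByExpr), which kept 45828 of 55487 genes, all 8 members and all 56 other fluid transport genes among them. Benjamini-Hochberg adjustment ran over all genes tested, and a gene was called at an adjusted p under 0.05 with a fold change over 1.5. The biological coefficient of variation was 0.177. The fit was also run on simulated data, in which genes varied independently within a lung. Its outcome is not given here, and such data cannot show how the fit handles shifts shared by many genes of a lung. Errors of levels are SD (n = 3) and errors of fold changes are SE. The p-values weigh a fold change against the spread between these animals, estimated over the 4 groups together. With RUVr, part of that spread had been taken out as factors. Exon lengths came from GENCODE mouse release 21, which matched 55227 genes.

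The members, the gene lists, the marker lists and the tests were chosen with earlier results of these data known. 1 listed gene is not reported here. Named were all members, Aqp5 and Sgk1 as direct partners, the 5 other listed genes with the smallest pooled p, and the 3 genes most correlated with each member (log2 of CPM + 0.5). Alternatives were TMM, 2 other count filters, DESeq2 1.42.0, RUVr, the receptor share as covariate, background subtraction, fits of 1 sex, an additive model, a replicate block and leaving out each lung. Summaries used pandas 2.3.3 under Python 3.11.15 and plots used matplotlib 3.10.9.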

Additional observations from a re-analysis of the deposited data

Results flagged for a closer look

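Nr3c2, the mineralocorticoid receptor and among the 56 other fluid transport genes, was picked out because all 3 hyperoxia females lay below all 3 room air females while all 3 hyperoxia males lay above all 3 room air males. Over all 45828 genes tested, 57 (0.124%) had this pattern and 275 (0.6%) were apart in opposite directions either way. Its log2 fold change was −0.19 in females (SE 0.14, adjusted p = 0.529) and 0.25 in males (SE 0.15, adjusted p = 0.9998). The test of the difference between the sexes gave −0.44 (SE 0.21, adjusted p = 0.578), which did not pass after adjustment over all genes and is not independent of the pattern that picked the gene. The difference ran from −0.50 to −0.35 with 1 lung left out (without hyperoxia male M2 and room air male M5) and was −0.31 with the receptor share as covariate. With RUVr its adjusted p was 0.0172, 0.0121 and 0.00821 for 1, 2 and 3 factors, at a fold under 1.5.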

How the results depend on the processing

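The count of members called was 0 in females, males and pooled over sex under every alternative run. For the interaction it was 2 with each of 1, 2 and 3 RUVr factors (Atp1b1 and Scnn1a) and 0 otherwise. The count of other fluid transport genes called in females was 1 of 56 (Aqp5) with each number of RUVr factors. Of all 45828 genes, 1903, 1931 and 2046 were called there. With lungs left out the count ranged from 0 to 1, being 1 without room air female F6, where 206 of 46780 genes were called. For the interaction it was 2 of 56 (Cnga1 and Slc9a3r2) with each number of RUVr factors, where 4.58%, 4.79% and 5.2% of all genes were called. All other counts were 0. Among all genes in females the 12 lungs gave 1903 calls with 1 RUVr factor, 44 with DESeq2 and 1 as reported, and leaving out room air female F6 gave 206.

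Numbers shared between groups (2 and 5 in females, 1 in males) only name animals, and same-numbered lungs did not deviate together (r = 0.195, −0.333 and −0.493 over 21379 genes). With the replicate block in females 0 members and 0 other genes were called in females, pooled over sex and for the interaction, and the interaction of Cftr turned to 0.043.

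Of 960 alternative values (members in the 4 comparisons and the 6 other named genes in all but the interaction, which is not reported for them), 54 had the opposite sign, none of them with an adjusted p under 0.05, and 17 of these came from the receptor share covariate. With that covariate the values in females were 0.091 for Aqp1, 0.22 for Scnn1a, 0.064 for Scnn1b and 0.068 for Scnn1g. In males they were −0.077 for Aqp1, −0.0091 for Scnn1b, −0.020 for Scnn1g and −0.058 for Slc12a2. Pooled over sex they were 0.0067 for Aqp1, 0.13 for Atp1b1, 0.015 for Nedd4l, 0.027 for Scnn1b and 0.024 for Scnn1g. For the interaction they were 0.17 for Aqp1, 0.073 for Scnn1b, 0.088 for Scnn1g and 0.028 for Slc12a2. With background subtracted the male value of Aqp1 was −0.016 and the pooled value of Atp1b1 was 0.066. With at least 10 counts in every library Cftr had 0.011 in females and 0.067 for the interaction, and Atp1b1 0.014 pooled. With DESeq2 Slc9a3r1 had 0.0081 in males. The causes were not tested.

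Leaving out 1 lung at a time moved male values across 0, from −0.17 to 0.31 for Aqp1, −0.41 to 0.10 for Aqp5, −0.078 to 0.021 for Cftr, −0.27 to 0.12 for Cldn3, −0.085 to 0.26 for Scnn1b, −0.12 to 0.31 for Scnn1g, −0.29 to 0.074 for Sgk1, −0.15 to 0.30 for Slc12a2 and −0.077 to 0.11 for Slc9a3r1. Pooled values ran from −0.087 to 0.098 for Atp1b1 and −0.048 to 0.18 for Scnn1a, the female value of Bpifa1 from −0.84 to 0.0042, and the interaction of Cftr from −0.079 to 0.032. The members had at least 233 counts in every lung, and the part of depth in the results was not tested. With 3 lungs per group an exact two-sided permutation test of a single value could not go below p = 0.1.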
